A study of Mus musculus with 4 samples.

Results

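The 10 genes described here encode the killing machinery, defining receptors and lineage factors of natural killer (NK) cells. They are Gzma, Gzmb, Prf1, Klrd1, Klrk1, Klrb1c, Ncr1, Il2rb, Eomes and Tbx21. They were selected by name, with earlier results of these data known, from a table of 23284 mouse genes. All 10 were found there, and all 10 had been tested by the authors. The sequenced RNA came from neutrophils of mouse bone marrow, mature by label and gated as cells with much Gr1, much 7/4 antigen and strong side scatter. The labels name 2 samples Srf KO and 2 samples WT, and the series concerns the need of migrating neutrophils for serum response factor (SRF). The labels give the genotype and the sort, and the promoter behind the deletion, the strain and the age of the mice are not given in the sources used here. The labels do not say that samples of a genotype came from separate animals.

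NK cells are lymphocytes that kill infected or transformed cells by releasing granules filled with perforin and granzymes. Lectin-like receptors of the Klr families and NKp46, the product of Ncr1, tell them which cells to attack, and interleukin 15 (IL-15) keeps them alive through a receptor that contains the Il2rb chain. The T-box factors EOMES and T-bet, the product of Tbx21, set up this programme in the bone marrow, where NK cells develop. Neutrophils are not known for this programme, so these genes were taken here as markers of cells outside the sort gate. Which cells their RNA came from was not tested. Cytotoxic T cells use many of the same genes.

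Every one of the 10 genes was higher in Srf KO samples than in WT samples. The authors' deposited table gives 1 pooled FPKM per genotype (fragments per kilobase of transcript, scaled to the mapped fragments of the library), so depth is unknown and no spread between samples could be computed. A gene was called where the adjusted p of the authors' deposited table was at most 0.05, and 10 of the 10 were called higher and 0 lower. Of all 12634 tested genes 17.7% were called higher and 17.8% lower, or 35.5% in either direction. Among the 5222 tested genes whose mean FPKM over both genotypes lay within the range of these 10 genes (0.677 to 8.28), 19.8% were called higher and 12.1% lower, or 31.9% in either direction. The median log2 fold of the 10 genes, Srf KO over WT, was 1.99, or 3.96-fold, against 0.08 for all tested genes. Because the 10 genes were chosen with earlier results of these data known, their contrasts with all tested genes are descriptions only. Added together, the 10 genes stood at 44.9 FPKM in Srf KO and 10.4 FPKM in WT, a ratio of 4.33. On the log2(FPKM + 1) scale, which compresses low values, the median fold was 1.23. In bulk RNA of sorted cells, more cells of a type and more RNA per cell cannot be told apart.

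**Figure D1:**
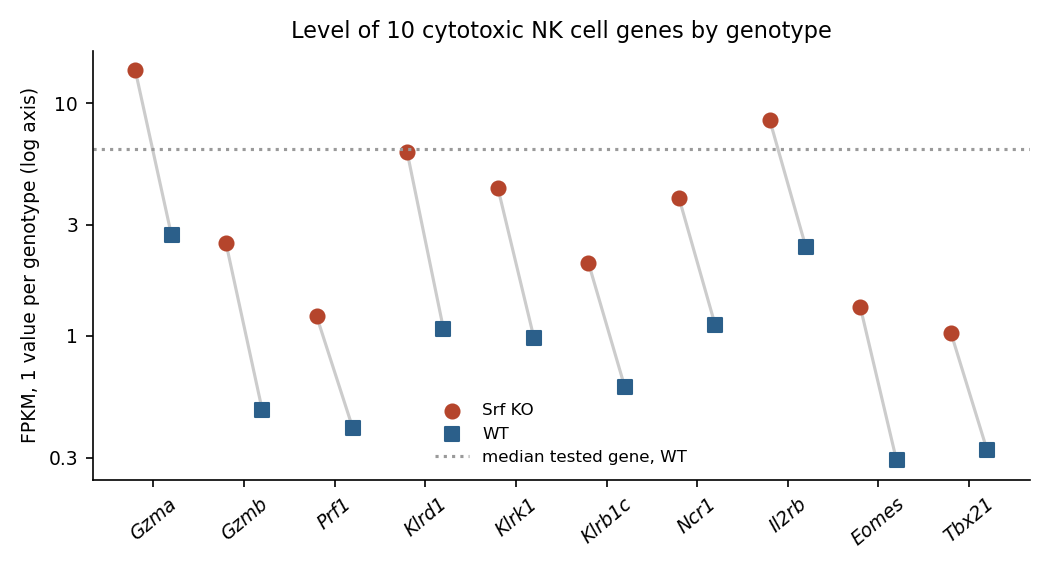
FPKM of the 10 genes on a log axis, with Srf KO as circles and WT as squares. There is 1 pooled value per genotype, so no error bar could be drawn. Each circle lies above its square, and the dotted line marks the WT median of tested genes at 6.36 FPKM.

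The killing machinery is represented by 3 genes, of which Gzma was the most abundant of all 10 and Prf1 among the least. Gzma encodes granzyme A, a serine protease of cytotoxic granules (mm10 chromosome 13, 113093827 to 113100981, minus strand, 5 exons). In the authors' deposited table Gzma stood at 13.9 FPKM in Srf KO and 2.70 FPKM in WT. Its log2 fold was 2.36 ± 0.30 (adjusted p = 2.07e-13, the authors' deposited table), where ± marks, here and below, a standard error obtained by dividing the fold by its deposited statistic. Gzmb encodes granzyme B, which cuts after aspartate and activates caspases in the target cell (chromosome 14, 56258858 to 56262260, minus strand, 5 exons). Gzmb was listed at 2.51 FPKM in Srf KO and 0.482 FPKM in WT, a log2 fold of 2.38 ± 0.39 (adjusted p = 2.95e-08, the authors' deposited table). The ratio of Gzma to Gzmb, per length, was 5.51 in Srf KO and 5.60 in WT. The log2 fold of Gzmb was 0.02 above that of Gzma, with a 95% interval of -0.94 to 0.99, so a shift in their proportion within that range was not resolved.

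Prf1 encodes perforin, which opens the pores through which granzymes enter (chromosome 10, 61297836 to 61304263, plus strand, 3 exons). Prf1 stood at 1.22 FPKM in Srf KO and 0.402 FPKM in WT by the authors' deposited table. This was the smallest fold of the 10 genes, 1.60 ± 0.36 on the log2 scale or 3.03-fold, and the largest adjusted p, 0.000105 (the authors' deposited table).

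Among the activating and inhibitory receptors, 3 lie in the NK gene complex on chromosome 6. Klrd1 encodes CD94, which pairs with NKG2 chains to read non-classical class I molecules (129591811 to 129598775, plus strand, 6 exons). Klrd1 was listed at 6.16 FPKM in Srf KO and 1.08 FPKM in WT, the largest fold of the 10 genes at 5.73-fold (log2 2.52 ± 0.36, adjusted p = 9.6e-11, the authors' deposited table). Klrk1 encodes NKG2D, an activating receptor for stress-induced ligands (129610321 to 129623841, minus strand, 8 exons). Klrk1 reached 4.34 FPKM in Srf KO against 0.978 FPKM in WT, a log2 fold of 2.15 ± 0.34 (adjusted p = 5.33e-09, the authors' deposited table). Klrb1c encodes NK1.1, the surface antigen by which NK cells are recognised in C57BL mice (128778485 to 128788641, minus strand, 6 exons). Klrb1c reached 2.06 FPKM in Srf KO against 0.606 FPKM in WT, a log2 fold of 1.77 ± 0.36 (adjusted p = 1.48e-05, the authors' deposited table). Its locus overlaps the annotated coding gene Gm44511, so some reads may be shared.

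Ncr1 encodes NKp46, an activating receptor largely restricted to NK cells and related innate lymphoid cells (chromosome 7, 4337724 to 4345164, plus strand, 7 exons). Ncr1 stood at 3.91 FPKM in Srf KO and 1.11 FPKM in WT, a log2 fold of 1.82 ± 0.32 (adjusted p = 2.79e-07, the authors' deposited table). Il2rb encodes CD122, the beta chain shared by the receptors for interleukin 2 and IL-15 (chromosome 15, 78480549 to 78495066, minus strand, 10 exons). Il2rb was listed at 8.49 FPKM in Srf KO and 2.40 FPKM in WT, a log2 fold of 1.82 ± 0.24 (adjusted p = 2.89e-12, the authors' deposited table). It was the second gene in level in both genotypes, and its fold had the smallest standard error of the 10.

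The 2 lineage factors were, with Prf1, the 3 genes of lowest level in both genotypes. Eomes (chromosome 9, 118478189 to 118486132, plus strand, 6 exons) was listed at 1.33 FPKM in Srf KO and 0.292 FPKM in WT, with a log2 fold of 2.19 ± 0.33 (adjusted p = 1.39e-09, the authors' deposited table). Tbx21 (chromosome 11, 97098007 to 97115331, minus strand, 6 exons) was listed at 1.03 FPKM in Srf KO and 0.322 FPKM in WT, with a log2 fold of 1.68 ± 0.36 (adjusted p = 3.09e-05, the authors' deposited table). EOMES marks conventional NK cells, while type 1 innate lymphoid cells are known for T-bet without EOMES. An annotated antisense gene, Gm33460, overlaps Eomes, and the library kit does not keep the strand, so their reads cannot be told apart.

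The folds of the 10 genes did not differ from each other beyond their errors. They ran between 1.60 and 2.52 on the log2 scale, and the 95% interval of each one held their own median of 1.99. Of the 45 pairs of these genes, 0 had a difference in fold whose 95% interval, from the implied standard errors, lay above 0. These intervals take the errors of the genes in a pair as independent, which could not be checked with pooled values. The widest gap, Klrd1 over Prf1, was 0.92 with an interval of -0.08 to 1.92, so differences of that size were not resolved by these errors. All 10 folds lay in the top 10% of tested genes, between percentiles 97.2 and 99.3.

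**Figure D2:**
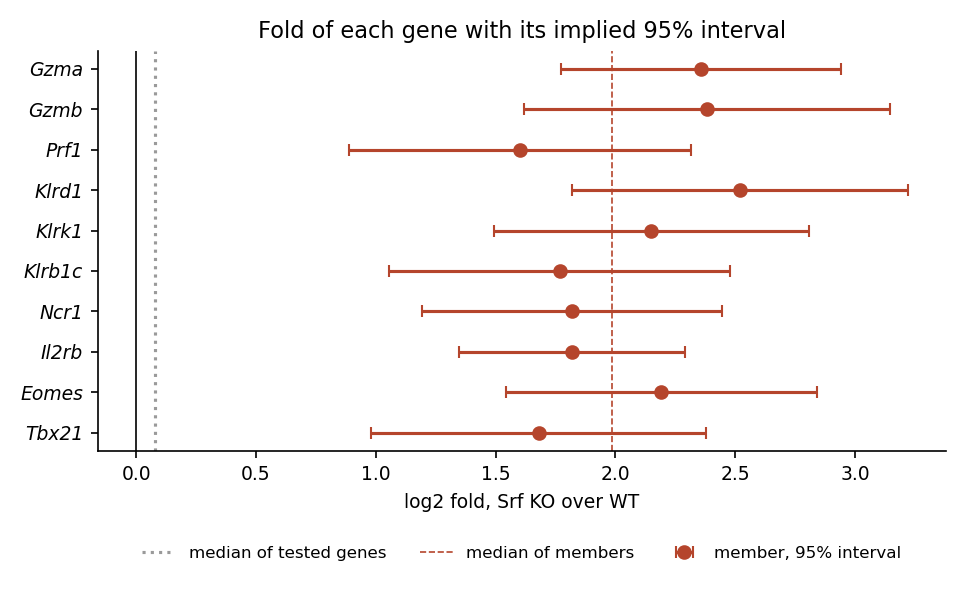
Log2 fold, Srf KO over WT, of each gene with the 95% interval from its implied standard error. All 10 intervals lie above 0 and above the dotted median of tested genes (0.08), and all overlap the dashed median of the 10 genes (1.99).

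The levels were low beside other tested genes. The median tested gene stood at 6.39 FPKM in Srf KO and 6.36 FPKM in WT, and 8 of the 10 genes were below it in Srf KO and 10 of 10 in WT. At least 1 FPKM was reached by 10 genes in Srf KO and by 4 in WT, namely Gzma, Il2rb, Ncr1 and Klrd1. From high to low the Srf KO order was Gzma, Il2rb, Klrd1, Klrk1, Ncr1, Gzmb, Klrb1c, Eomes, Prf1 and Tbx21. The order in WT put Ncr1 ahead of Klrd1, Klrb1c ahead of Gzmb, and Prf1 and Tbx21 ahead of Eomes. Without values per sample, it could not be judged which neighbours in either order differ beyond their spread.

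Isoforms were resolved for 3 of the 10 genes. In the authors' deposited table of isoforms, Klrk1 had a pair of them with separate start site groups. The isoform NM_001083322 of Klrk1 made up 46.7% of the gene in Srf KO and 31.3% in WT (2.03 FPKM in Srf KO, 0.306 FPKM in WT, the authors' deposited table). The isoform NM_033078 stood at 2.31 FPKM in Srf KO and 0.672 FPKM in WT and was called higher (log2 fold 1.78 ± 0.39, adjusted p = 8.45e-05, the authors' deposited table). NM_001083322 was not tested there, though its row holds a statistic, from which its standard error was taken. The gap between the folds of these Klrk1 isoforms was 0.94, with a 95% interval of -0.58 to 2.46, so the shift in share was not resolved. Both isoforms of Klrb1c were higher in Srf KO in value, at 1.49 FPKM in Srf KO against 0.509 FPKM in WT for NM_001159904, which was not tested there, and at 0.571 FPKM in Srf KO against 0.0965 FPKM in WT for NM_008527, which was not called (adjusted p = 0.133, the authors' deposited table). Nearly all of Eomes came from NM_010136, since the other isoform, NM_001164789, made up 0.00293% of the gene in Srf KO and 0.0113% in WT by the authors' deposited table.

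Promoters of the 10 genes were searched for the binding motifs of a few factors. The windows run from 250 bases before to 50 after the RefSeq start of transcription (GRCm38.p6), and 8 of the 10 genes had one, all but Klrd1 and Il2rb. RUNX factors, among them RUNX3, which takes part in NK cell development, recognise the core TGTGGT. Runx3 itself, named here after its values were seen, was at 4.48 FPKM in Srf KO and 4.00 FPKM in WT and was not called in the authors' deposited table (log2 fold 0.16 ± 0.22). On either strand, that core was present in 6 of the 8 promoters, those of Gzma, Gzmb, Prf1, Klrk1, Klrb1c and Ncr1, against 18.9% of 27025 genes with a promoter. It was absent from the windows of Eomes and Tbx21. The T-box motif GGTGTGA was in 0 of the 8 windows and in those of 4.60% of all genes, and the SRF motif known as the CArG box was in 0 of 8 and in 1.81% of all genes. The motifs differ in letters and no match of one could be counted for another. These matches describe letters in short windows, and binding was not measured. Whether any of these motifs had a part in the rise of the 10 genes was not tested.

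The promoters of the 3 effector genes and of Ncr1 are shown with their matches to the RUNX core. They are read 5′ to 3′ on the strand of the gene, and capitals mark TGTGGT or, for a match on the other strand, ACCACA. The windows are chr13:113100932-113101231 (minus strand) for Gzma, chr14:56262285-56262584 (minus) for Gzmb, chr10:61297586-61297885 (plus) for Prf1 and chr7:4337465-4337764 (plus) for Ncr1. In Gzma the match begins 50 bases before the RefSeq start, in Prf1 130 bases, in Gzmb 93 and 34 bases, and in Ncr1 176 and 41 bases. The RefSeq start of Gzmb lies upstream of the gene boundary in the authors' deposited table.
Gzma: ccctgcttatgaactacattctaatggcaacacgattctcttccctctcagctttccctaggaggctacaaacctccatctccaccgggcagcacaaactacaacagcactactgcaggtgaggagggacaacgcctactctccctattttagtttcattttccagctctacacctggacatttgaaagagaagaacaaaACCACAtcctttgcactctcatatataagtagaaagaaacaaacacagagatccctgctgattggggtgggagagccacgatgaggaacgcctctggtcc
Gzmb: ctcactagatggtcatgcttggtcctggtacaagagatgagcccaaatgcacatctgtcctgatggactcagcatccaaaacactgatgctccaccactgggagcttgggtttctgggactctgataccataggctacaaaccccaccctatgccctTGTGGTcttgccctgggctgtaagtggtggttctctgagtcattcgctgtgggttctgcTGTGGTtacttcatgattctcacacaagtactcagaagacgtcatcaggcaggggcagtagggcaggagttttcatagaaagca
Prf1: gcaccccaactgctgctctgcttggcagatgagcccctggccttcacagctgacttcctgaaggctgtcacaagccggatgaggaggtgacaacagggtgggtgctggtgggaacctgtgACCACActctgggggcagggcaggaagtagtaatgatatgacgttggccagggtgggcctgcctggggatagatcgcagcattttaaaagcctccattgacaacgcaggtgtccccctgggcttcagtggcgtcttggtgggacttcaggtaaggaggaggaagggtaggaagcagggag
Ncr1: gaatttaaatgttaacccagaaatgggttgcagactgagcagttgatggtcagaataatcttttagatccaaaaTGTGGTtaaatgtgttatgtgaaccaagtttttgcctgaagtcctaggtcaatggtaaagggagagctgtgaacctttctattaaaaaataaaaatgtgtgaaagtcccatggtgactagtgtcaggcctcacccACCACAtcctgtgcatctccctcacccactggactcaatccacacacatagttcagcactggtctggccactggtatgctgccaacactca

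Other genes of the NK programme moved in both directions. Of all tested genes 17.7% were called higher and 17.8% lower, shares that apply beside each list below. Beyond the 10 genes, 27 of 28 further NK receptor genes were in the table and all 27 were tested, with 14 called higher and 2 lower and a median log2 fold of 1.77. Klrc3, an NKG2 chain, stood at 1.45 FPKM in Srf KO and 0.164 FPKM in WT (log2 fold 3.14 ± 0.91), and the activating receptor gene Cd226 at 1.21 FPKM in Srf KO and 0.223 FPKM in WT (2.44 ± 0.41), in the authors' deposited table. Klra9, of the Ly49 family, was higher too (1.44 FPKM in Srf KO, 0.204 FPKM in WT, adjusted p = 0.0176, the authors' deposited table), but Klra and Klrc genes are close copies of one another, so their values are uncertain. The Fc receptor gene Fcgr3, which neutrophils carry in abundance, went the other way, at 410 FPKM in Srf KO and 651 FPKM in WT (-0.67 ± 0.19, the authors' deposited table). Cd244, named after its values were seen, was also called lower (2.88 FPKM in Srf KO, 4.51 FPKM in WT, -0.65 ± 0.23, the authors' deposited table).

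Among further granule enzymes and death ligands, 6 of 12 were tested, with 4 called higher, 0 lower and a median of 1.41. The death ligand gene Tnfsf10 rose to 1.67 FPKM in Srf KO, against 0.607 FPKM in WT, and the granule cathepsin gene Ctsw to 4.34 FPKM in Srf KO, against 1.70 FPKM in WT (log2 folds 1.46 ± 0.28 and 1.35 ± 0.31, the authors' deposited table). Ctsc, the protease that matures granzymes and neutrophil serine proteases alike, rose to 36.4 FPKM in Srf KO, against 26.5 FPKM in WT (log2 fold 0.46 ± 0.19, the authors' deposited table). Granzymes outside the 10 genes, picked here after their values were seen, were not called where they were tested. Gzmk was higher in value, at 0.749 FPKM in Srf KO and 0.255 FPKM in WT (log2 fold 1.55 ± 0.69, the authors' deposited table). Gzmm was at 0.885 FPKM in Srf KO and 1.12 FPKM in WT (-0.33 ± 0.34, the authors' deposited table). Of the remaining granzyme genes, 5 were listed at 0 in both genotypes.

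Genes of granule release, which neutrophils share with NK cells, were called lower in 7 cases of 11 tested. There was 1 called higher, 3 were not called, and the median log2 fold was -0.68. All 11 had a mean of 10 FPKM or more, a level at which 28.1% of all tested genes were called lower and 14.0% higher. Lyst, a regulator of lysosome-related granules, stood at 13.2 FPKM in Srf KO and 67.3 FPKM in WT (-2.35 ± 0.19), and the actin regulator gene Coro1a at 479 FPKM in Srf KO and 1231 FPKM in WT (-1.36 ± 0.19), in the authors' deposited table. The gene called higher was Nkg7, a granule membrane gene of cytotoxic and myeloid cells, at 52.8 FPKM in Srf KO and 24.1 FPKM in WT (1.13 ± 0.21, the authors' deposited table). Arf6, Vamp8 and Lamp1 were the genes not called, and they are named here after their values were seen.

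Of 12 tested signalling adaptors, 5 were called higher and 5 lower. Apart from granule release, each list of further NK genes here mixes levels under and above a mean of 10 FPKM. Of all tested genes under that level, 20.2% were called higher and 10.9% lower. At 10 FPKM or more the shares were 14.0% and 28.1%. Sh2d1a, which encodes the lymphocyte adaptor SAP, rose (2.59 FPKM in Srf KO, 0.312 FPKM in WT, log2 fold 3.06 ± 0.60), as did Sh2d1b1 (1.10 ± 0.29), in the authors' deposited table. Tyrobp, the DAP12 adaptor of NK and myeloid receptors, fell to 2094 FPKM in Srf KO, against 3765 FPKM in WT (-0.85 ± 0.20, the authors' deposited table). Of 18 tested genes of IL-15 and interleukin 12 signalling and their outputs, 6 were called higher and 6 lower. The chemokine genes Xcl1 (10.9 FPKM in Srf KO, 1.93 FPKM in WT, log2 fold 2.50 ± 0.39) and Ccl5 (33.9 FPKM in Srf KO, 7.35 FPKM in WT, 2.21 ± 0.28) were higher, and the interleukin 18 receptor chain gene Il18rap was lower (29.2 FPKM in Srf KO, 80.3 FPKM in WT, -1.46 ± 0.19), in the authors' deposited table.

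Of 14 tested further transcription factors of NK and innate lymphoid development, 8 were called higher and 2 lower (median 0.68). Tcf7, which encodes the T and innate lymphoid factor TCF-1, had the largest called fold of those at 1 FPKM or more (3.98 FPKM in Srf KO, 1.33 FPKM in WT, log2 fold 1.58 ± 0.28, the authors' deposited table). Id2, a factor that innate lymphocytes need and the most abundant of the list, was not called (68.7 FPKM in Srf KO, 52.7 FPKM in WT, the authors' deposited table). Among genes of NK stage and homing, 7 of 11 tested were called higher and 1 lower (median 1.04). Cd7 had the largest called fold of those at 1 FPKM or more (1.55 ± 0.29, the authors' deposited table). Cd27, a marker of less mature mouse NK cells, was at 4.46 FPKM in Srf KO and 1.77 FPKM in WT (1.33 ± 0.51). S1pr5 (0.787 FPKM in Srf KO, 0.270 FPKM in WT, 1.55 ± 0.38) and Cx3cr1 (0.65 ± 0.21) were also called higher. These 2 genes are named here after their values were seen. Itgam, an integrin gene that neutrophils also carry, was called lower, at 418 FPKM in Srf KO and 694 FPKM in WT (-0.73 ± 0.26). All these values are from the authors' deposited table, and whether NK stage differed between genotypes was not tested.

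**Figure D3:**
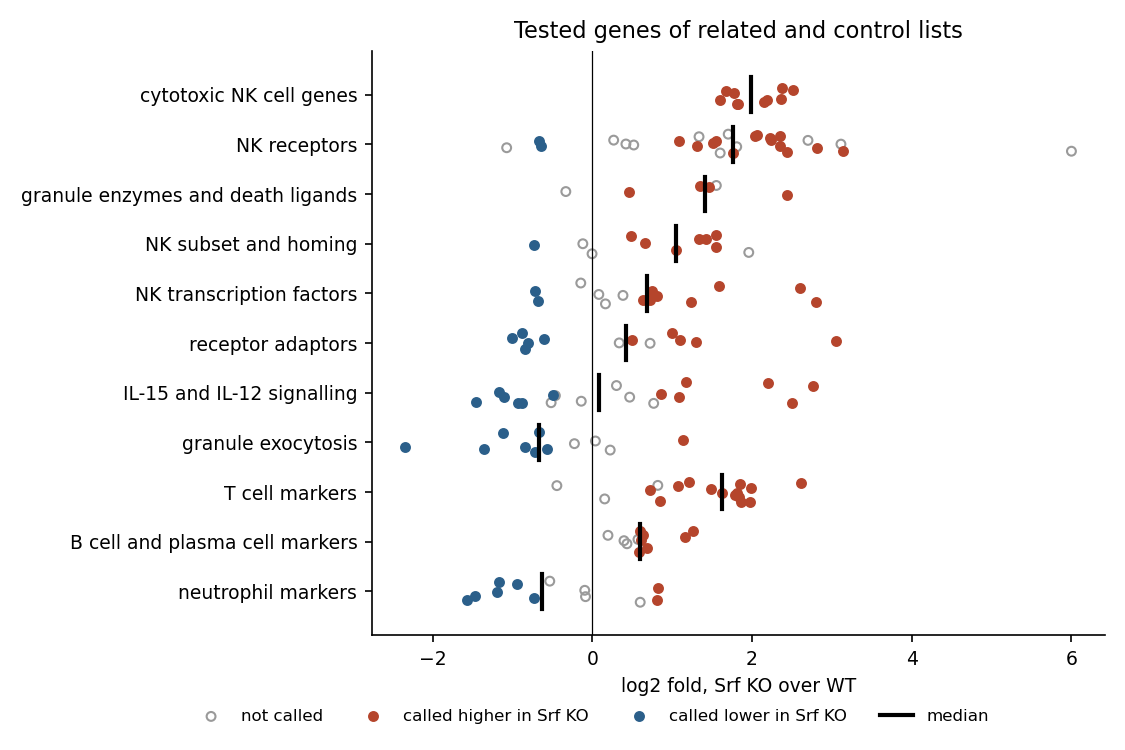
Log2 fold, Srf KO over WT, of tested genes in the lists of NK, T cell, B cell and neutrophil genes, with filled points for genes called in the authors' deposited table and a bar at each median. The 10 cytotoxic NK cell genes lie between 1.60 and 2.52, while 7 of 11 granule exocytosis genes lie below 0 as called genes.

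When the 7 pathway lists were joined, level went with direction. This split was chosen after the values were seen. Of 63 tested pathway genes with a mean under 10 FPKM, 37 were called higher and 2 lower, with a median log2 fold of 1.35; of all tested genes at that level 20.2% were called higher and 10.9% lower, with a median of 0.26. Of 36 pathway genes at 10 FPKM or more, 8 were called higher and 21 lower, with a median of -0.64; of all tested genes at that level 14.0% were called higher and 28.1% lower, with a median of -0.14. The 10 cytotoxic genes all belonged to the lower range of level.

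**Figure D4:**
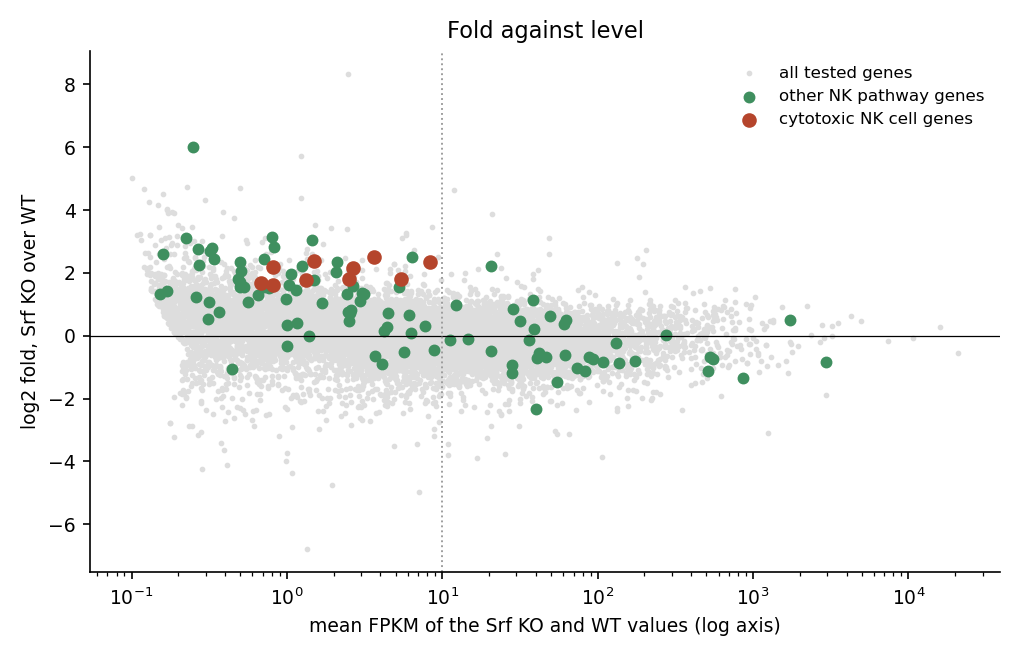
Log2 fold, Srf KO over WT, against mean FPKM on a log axis for all tested genes (grey), the 7 other NK pathway lists (green) and the 10 cytotoxic NK cell genes (red); the dotted line marks 10 FPKM. Pathway genes to the left of the line are mostly above 0 and those to the right mostly below it.

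The 3 chromosome 6 members did not mark a region in which every gene rose. Between Klrb1c and Klrk1 lie 845 kb (chromosome 6, 128778485 to 129623841) with 18 other tested genes, of which 5 were called higher, 2 lower and 11 were not called, and their median log2 fold was 0.36. Of all 12634 tested genes, 17.7% were called higher and 17.8% lower. The genes between Klrb1c and Klrk1 were chosen by position and are named here after their values were seen. Klre1, an NK receptor gene beside Klrd1, stood at 3.33 FPKM in Srf KO and 0.813 FPKM in WT (2.03 ± 0.39), and Cd69, an early activation marker of lymphocytes, at 5.21 FPKM in Srf KO and 1.95 FPKM in WT (1.42 ± 0.28), in the authors' deposited table. The dectin-1 gene Clec7a, which myeloid cells express, stood at 50.9 FPKM in Srf KO and 122 FPKM in WT (-1.26 ± 0.18, the authors' deposited table). Clec2d was at 93.8 FPKM in Srf KO and 89.5 FPKM in WT and was not called in the authors' deposited table.

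**Figure D5:**
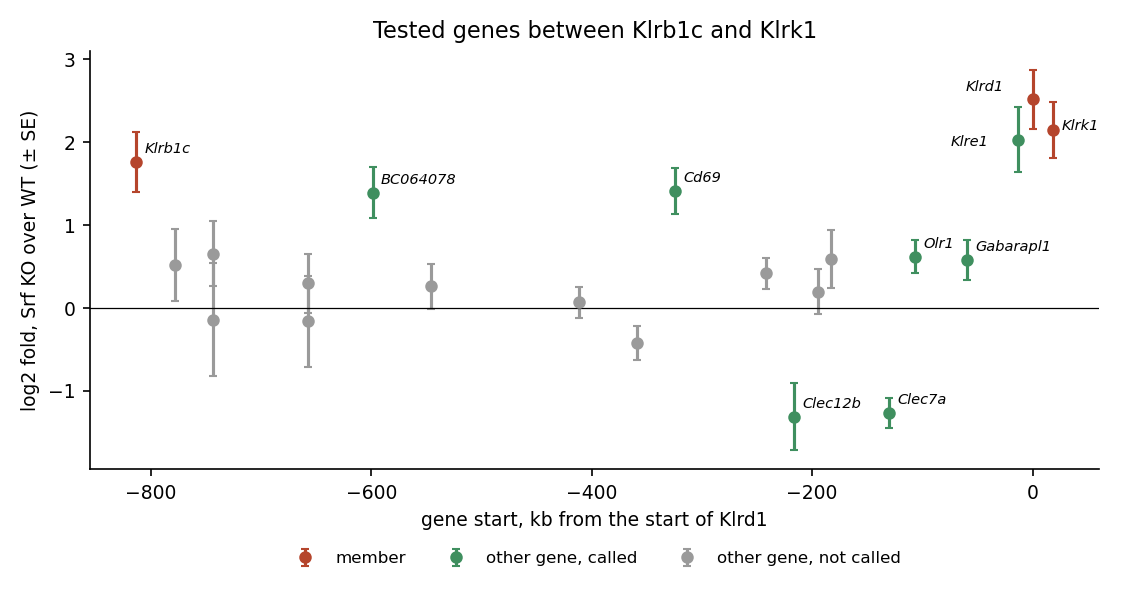
Log2 fold, Srf KO over WT, with its standard error for tested genes from Klrb1c to Klrk1, placed by the distance of the gene start from that of Klrd1 in kb; red points are members, green points other called genes and grey points genes that were not called. Called rises sit beside genes that were not called and beside the lower Clec7a.

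Markers of other cells moved along with the 10 genes. Beside the counts that follow, 17.7% of all tested genes were called higher and 17.8% lower. Of 17 tested T cell genes, 14 were called higher and 0 lower, with a median log2 fold of 1.63 and a summed level over tested markers of 70.5 FPKM in Srf KO and 35.4 FPKM in WT. Cd4, the coreceptor of helper T cells, had the largest called fold of the list at 1 FPKM or more, with 2.49 FPKM in Srf KO and 0.408 FPKM in WT (2.61 ± 0.31, the authors' deposited table), which is above the folds of the 10 genes in value. Cd3g was at 7.36 FPKM in Srf KO and 1.86 FPKM in WT (1.98 ± 0.30), while Cd3d, the most abundant of the list, was not called (15.0 FPKM in Srf KO, 13.5 FPKM in WT, the authors' deposited table). B cell markers had a median of 0.60, with 7 of 12 called higher and 0 lower. Erythroid markers were called higher in 7 of 10, megakaryocyte markers in 8 of 12, and basophil, mast cell and eosinophil markers in 12 of 14, with 0 lower in these 3 lists. Of 13 monocyte and macrophage genes 9 were called higher and 3 lower; dendritic cell markers higher in 5 of 9 and lower in 1, and progenitor markers higher in 7 of 9 and lower in 0. Whether the 10 NK genes rose more than these lists was not tested.

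The neutrophil identity of the sort was visible in both genotypes. Summed over 12 tested markers, neutrophil genes stood at 31263 FPKM in Srf KO and 42986 FPKM in WT, with 2 called higher and 6 lower (median -0.63). Another 5 neutrophil genes of the list, Camp, Ltf, Ngp, S100a8 and S100a9, carry the status HIDATA in place of a test. They were listed at 0 FPKM in Srf KO, and in WT Camp was listed at 16292 FPKM and the other 4 at 0. These entries were not read as levels, and the sum above leaves them out. Retnlg, the most abundant of the 12 tested markers, was at 17117 FPKM in Srf KO and 24805 FPKM in WT and was not called in the authors' deposited table. Those called lower included Cxcr2 (201 FPKM in Srf KO, 596 FPKM in WT, log2 fold -1.57 ± 0.19, the authors' deposited table). Csf3r (248 FPKM in Srf KO, 687 FPKM in WT, -1.47 ± 0.22) and Mmp8 (1015 FPKM in Srf KO, 2320 FPKM in WT, -1.19 ± 0.22) were also called lower. The 2 called higher were Gfi1 (0.82 ± 0.20) and Mpo (0.81 ± 0.19). The targeted gene, Srf, was at 0.439 FPKM in Srf KO and 13.7 FPKM in WT (log2 fold -4.97 ± 0.27, the authors' deposited table), as its labels say. The part that other cells or the fall of abundant neutrophil transcripts had in the rise of the 10 genes was not tested.

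With 1 value per genotype, the pattern of a gene is its fold alone. The 5 genes nearest to the median fold of the 10, among those at 1 FPKM or more in Srf KO and outside every list, were F2r, Pparg, Lgals3bp, Pecr and 2310005G13Rik, all within 0.03 of it on the log2 scale. F2r, which encodes a thrombin receptor, was the closest, at 1.40 FPKM in Srf KO and 0.354 FPKM in WT (1.99 ± 0.33, the authors' deposited table).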

How the data were processed

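RNA from 2 Srf KO and 2 WT samples of sorted mouse neutrophils was sequenced from TruSeq RNA v2 libraries, as the labels' protocols state. Per the submitters' processing notes the tools were TopHat2 2.0.0, Cufflinks 2.0.0 and CASAVA 1.8.1 on mm10, with no roles or settings listed. The 4 tables (genes, isoforms, start site groups, coding sequences) hold FPKM as deposited by the authors, pooled per genotype. The log2 fold, kept as a score because rows at 0 hold a placeholder, and the test statistic, also a score, are those the authors deposited, as are the p-value and q-value. The fold was turned to Srf KO over WT. Settings of that test are not given in the sources used here. The p-values measure at most the spread between these samples, which may be technical.

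For tested genes with a fold, p-values equalled a two-sided tail of the normal distribution at the statistic, to within a relative deviation of 0.00477. The smallest p-values, those of Gzma and Il2rb among them, were left out of that check. The q-values equalled the Benjamini-Hochberg adjustment of the p-values over 12634 tested genes. Standard errors are fold over statistic, with 95% intervals at 1.96 of them. Intervals of a difference between folds take the errors of the folds as independent. Recomputed calls were tested on data simulated from the same standard errors. That test cannot show whether those errors are right. Starts are printed counting from 1. Exons, strand and overlaps come from GENCODE M21 (GRCm38, the assembly of mm10), promoters from RefSeq (GRCm38.p6). Transcript length was available for 99.2% of genes with a fold. Genes other than the 10 were drawn, except where the text says otherwise, from those a rule selects, and not all of these are printed: up to 3 called genes of largest fold at 1 FPKM or more per list, the most abundant of each list, and the 5 nearest in fold. The members and the lists were chosen with earlier results of these data known. Lists were described without a test. The design allowed for values per sample; the tables hold pooled values, so the authors' test is reported. Alternatives were other thresholds, filters, pseudocounts, centring, length adjustment and the other tables. The scripts ran under Python 3.11.15 with pandas 2.3.3, numpy 2.4.6, matplotlib 3.10.9 and scipy 1.17.1.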

Additional observations from a re-analysis of the deposited data

How the results depend on the processing

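The count of 10 called genes was also 10 at adjusted p thresholds of 0.01 and 0.001, with a log2 fold minimum of 1, with centred folds and with folds adjusted for transcript length. It was 9 under a Bonferroni correction over all tested genes, which Prf1 did not pass. It was 1 in the start site group table, 1 in the isoform table and 1 in the coding sequence table, in each case Klrk1; there most rows of the 10 genes carry no test, 1 of 11 start site groups, 2 of 13 isoforms and 2 of 13 coding sequences having been tested. The median log2 fold of 1.99 lay between 1.82 and 2.19 under a pseudocount of 0.1, centring, length adjustment, the most abundant isoform and without Il2rb, Klrk1 and Tbx21, and was 1.23 with a pseudocount of 1. With that pseudocount each of the 10 folds shrank by more than its standard error, the lowest being Tbx21 at 0.62, because the levels are near 1 FPKM. Length adjustment lowered Gzma to 1.98 and Klrd1 to 2.14, and the other 8 folds moved by less than their standard error. With the most abundant isoform Klrk1 was at 1.78. A filter at 1 FPKM in either genotype could not change these results, since all 10 genes pass it in Srf KO and 4 of them in WT. The ratio of summed FPKM was 4.05 without Gzma and 4.04 over the 5 surface receptors alone. Leaving out each replicate was not run because the values are pooled per genotype. No paired analysis was possible because the columns carry no replicate numbers. Depth is unknown, so the counting error of these low levels could not be given.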
